A study of Mus musculus with 2 samples.

Results

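The miR-148 and miR-152 family consists of 3 microRNA (miRNA) hairpins, Mir148a, Mir148b and Mir152, whose 3p arms carry the same seed, the short 5′ stretch that a miRNA uses to recognise its target mRNAs. The members described here are 5 of the 1125 mature miRNAs listed in at least 1 of the libraries: both arms of Mir148a, both arms of Mir148b, and miR-152-3p. They were taken by name, and the family was chosen because miR-148a-3p is lower in Th17 while miR-148b-3p is nearly level. The ratios of the members between the libraries are therefore a description of these libraries. All 5 members were listed in both libraries, and 4 of them had a mean of at least 10 CPM (reads scaled to a common library total of 1e6 listed reads), the minimum used below for counting miRNAs past a fold. miR-152-5p, the other arm of the third hairpin, is given beside them for comparison.

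Small RNA was sequenced from mouse helper T cells in 1 library of control cells (Th0) and 1 library of cells driven toward the interleukin-17-producing Th17 state. Both were grown, in medium with 10% foetal bovine serum, from naive CD4+CD62L+ T cells of female C57BL/6 mouse spleen; the sources used here do not state the age of the mice. Both groups received anti-CD28 at 1 µg/ml, anti-IL-4 at 5 µg/ml and anti-IFN-γ at 5 µg/ml. The Th17 group alone received anti-IL-2 and anti-IL-12 (each 5 µg/ml), TGF-β (2 ng/ml), IL-6 (40 ng/ml), IL-1β (10 ng/ml) and IL-23 (40 ng/ml), and was kept for 6 to 7 days. The time in culture of the Th0 cells is unclear from the labels, so culture time and Th17 conditions cannot be told apart. The files hold 8358010 listed reads for Th0 and 11975371 for Th17, in 1 column per group although the labels speak of triplicates. No difference between conditions could be tested, and every interval below is a 95% interval of counting error only.

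A miRNA hairpin is cut by Dicer into a 5p and a 3p strand, and usually one of them, the guide, is retained in an Argonaute protein and represses mRNAs that match its seed. miR-148a, miR-148b and miR-152 are known repressors of the DNA methyltransferase Dnmt1. In lymphocytes miR-148a is known for repression of the pro-apoptotic gene Bcl2l11 (Bim), for its induction in repeatedly stimulated Th1 cells, and for roles in B cell tolerance and plasma cell differentiation.

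The mature sequences are shown because the whole account turns on miRNAs that are almost identical in sequence and differ in reads. They are the RefSeq sequences on GRCm38.p6, 5′ to 3′, and capitals mark the seed, bases 2 to 8.
miR-148a-3p: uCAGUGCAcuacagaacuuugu
miR-148b-3p: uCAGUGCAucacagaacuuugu
miR-152-3p: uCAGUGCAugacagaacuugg
miR-148a-5p: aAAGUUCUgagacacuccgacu
miR-148b-5p: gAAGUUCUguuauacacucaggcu
miR-152-5p: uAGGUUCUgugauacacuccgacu
The 3p arms share the seed CAGUGCA, and of the listed miRNAs with a RefSeq sequence these 3 alone carry it. Counted from the 5′ end, miR-148b-3p differs from miR-148a-3p by C9U and U10C and matches at the other 20 of 22 bases. miR-152-3p differs from miR-148a-3p by C9U, U10G and U20G over the 21 bases they share, and from miR-148b-3p by C10G and U20G. A read must therefore be assigned to miR-148a-3p or miR-148b-3p by bases 9 and 10. The sources used here do not state how many mismatches were allowed or where ambiguous reads were placed. The 5p arms of Mir148a and Mir148b share the seed AAGUUCU, whereas that of miR-152-5p is AGGUUCU.

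The precursors are shown because the arms of each are compared below, and capitals mark the 5p and the 3p arm in that order.
Mir148a: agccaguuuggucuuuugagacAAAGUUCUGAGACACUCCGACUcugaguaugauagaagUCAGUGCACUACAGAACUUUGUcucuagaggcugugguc
Mir148b: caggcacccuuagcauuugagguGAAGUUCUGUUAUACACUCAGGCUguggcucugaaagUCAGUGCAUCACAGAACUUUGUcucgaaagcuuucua
Mir152: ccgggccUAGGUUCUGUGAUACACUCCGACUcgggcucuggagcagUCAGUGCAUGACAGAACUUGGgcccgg
In the GENCODE M21 annotation of GRCm38, the assembly that mm10 names, Mir148a lies on chromosome 6 from 51269812 to 51269910 on the minus strand. It overlaps no annotated gene, and the nearest protein-coding gene, Nfe2l3, is 162760 bases away. Mir148b spans bases 103285125 to 103285221 of the plus strand of chromosome 15, inside introns of all 4 overlapping transcripts of Copz1, which encodes a subunit of the COPI vesicle coat. Mir152 spans bases 96850393 to 96850465 of the plus strand of chromosome 11, inside introns of all 3 overlapping transcripts of Copz2, the paralog of Copz1, 523 bases from the start of that gene. The 3 hairpins thus sit on 3 chromosomes, 2 of them inside paralogous host genes on the strand of the host. The nearest other annotated miRNA gene was 65234 bases from Mir148b, 213303 bases from Mir152 and 351722 bases from Mir148a. The host transcripts were not measured in these small RNA libraries.

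miR-148a-3p, the leading guide of the family, was the member with the most reads in both libraries and was lower in Th17. It had 46323 reads in Th0 and 23400 in Th17, or 5542 CPM (5492 to 5593) and 1954 CPM (1929 to 1979). The Th17 level was 2.84-fold lower (2.79 to 2.88), a log2 ratio of -1.50. It ranked 28 by reads in Th0 and 47 in Th17. The absolute difference, Th17 minus Th0, was -3588 CPM, and 5 miRNAs of all 1125 had a larger loss. In such bulk libraries fewer cells that hold a miRNA and fewer copies per cell cannot be told apart.

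miR-148b-3p, whose seed is the same and whose hairpin lies in Copz1, stayed near its Th0 level. It had 11098 reads in Th0 and 15544 in the deeper Th17 library, which is 1328 CPM (1303 to 1353) and 1298 CPM (1278 to 1319). The log2 ratio was -0.033, with an interval from -0.068 to 0.0025 that spans 0, and it was 0.045 under DESeq2 size factors, so its direction is not settled. Of the 298 miRNAs at the minimum, 6 including miR-148b-3p itself had a ratio this close to 0 or closer. Its rank was 62 in Th0 and 59 in Th17.

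miR-152-3p, the third 3p member, was scarce in both libraries and had the lowest ratio of the members. It had 138 reads in Th0 and 32 in Th17, or 16.5 CPM (13.9 to 19.5) and 2.67 CPM (1.83 to 3.77). This is 6.18-fold lower (4.18 to 9.38), a log2 ratio of -2.63 with an interval from -3.23 to -2.06. The wide interval comes from the few reads, and the mean of 9.59 CPM lies just under the minimum of 10. Its other arm, miR-152-5p, had 130 and 47 reads, or 15.6 and 3.92 CPM, and was 3.96-fold lower (2.82 to 5.66).

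**Figure D1:**
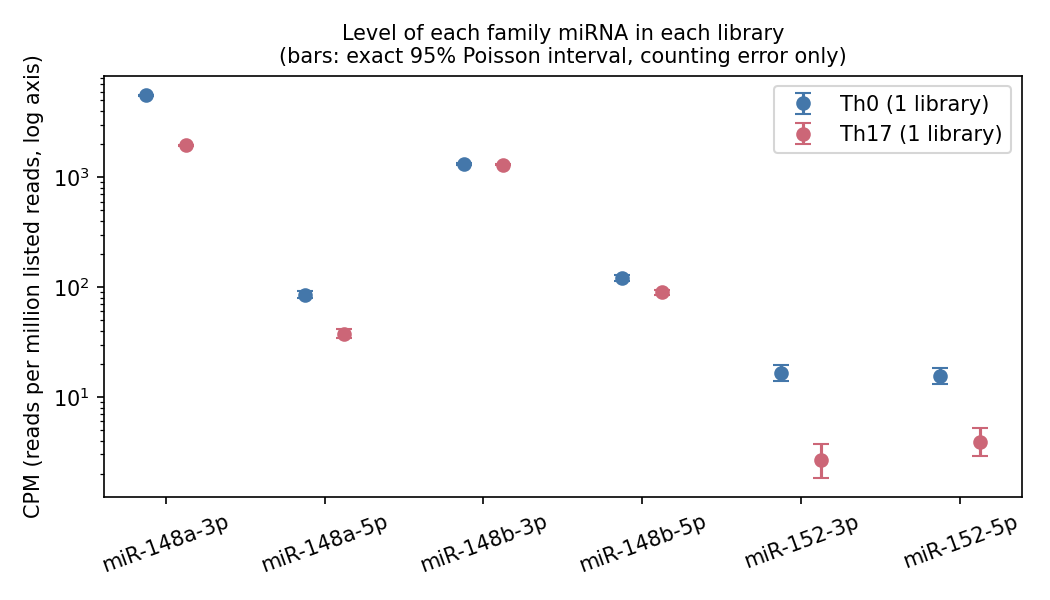
Level of each family miRNA in CPM on a log axis, with 1 point per library and bars for the exact Poisson interval. The Th0 and Th17 points of miR-148b-3p lie at 1328 and 1298 CPM, while those of miR-148a-3p and of both miR-152 arms are far apart.

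The passenger arms had far fewer reads than their guides. miR-148a-5p had 714 reads in Th0 and 451 in Th17, which is 85.4 CPM (79.3 to 91.9) and 37.7 CPM (34.3 to 41.3), 2.27-fold lower (2.01 to 2.56). miR-148b-5p had 1011 and 1071 reads, which is 121 CPM (114 to 129) and 89.4 CPM (84.2 to 95.0), 1.35-fold lower (1.24 to 1.48). Both passenger arms were thus lower in Th17, although the guide opposite miR-148b-5p was nearly level.

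Ordered by reads, the family ran miR-148a-3p, miR-148b-3p, miR-148b-5p, miR-148a-5p and then the arms of Mir152 in both libraries. The intervals of neighbours in that order did not overlap except for the arms of Mir152, whose intervals overlapped in Th0 and in Th17. All 6 strands are 21 to 24 bases long and each read stands for a whole strand, so no length scaling applies. Ligation to the sequencing adapters differs between sequences, which makes such an order one of reads and not of molecules.

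Of the 4 members that met the minimum of 10 CPM, 2 were lower in Th17 by 2-fold or more with an interval that excludes no change, both of them arms of Mir148a. Over all 298 miRNAs at that minimum the share called lower was 13.1%, and 6.71% were called higher. The median log2 ratio of the 4 members was -0.81, beside -0.080 for the 298. With no minimum miR-152-3p was the third member called, against 8.89% of all 1125 miRNAs. Since the family was chosen from this contrast, these shares are given for scale and nothing is read from them. Of the 298 miRNAs, 22 had a lower ratio than miR-148a-3p and 92 a lower one than miR-148b-5p.

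**Figure D2:**
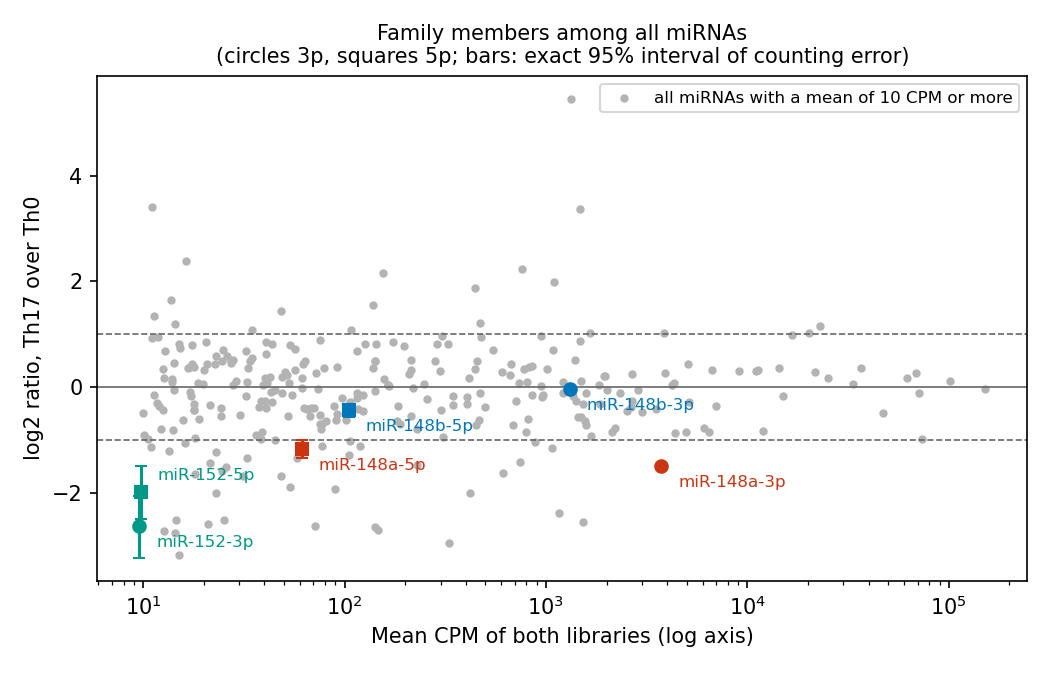
The log2 ratio of Th17 over Th0 against the mean CPM (log axis), with grey points for miRNAs at 10 CPM or more, circles for 3p and squares for 5p family strands, and dashed lines at a 2-fold difference. miR-148a-3p at -1.50 lies below the line, miR-148b-3p at -0.033 lies on 0, and both miR-152 strands sit at the low end of the CPM axis.

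Because miR-148a-3p, miR-148b-3p and miR-152-3p carry the same seed, their reads can be added. The sum was 6887 CPM for Th0 against 3255 CPM for Th17, 2.12-fold lower (2.09 to 2.14). Without miR-148a-3p the sum was 1344 and 1301 CPM, 1.03-fold lower (1.01 to 1.06), so nearly all of the difference in the summed reads lay in miR-148a-3p. The 5p strands of the 3 hairpins came to 222 and 131 CPM, 1.69-fold lower (1.58 to 1.81).

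The make-up of the family within a library needs no scaling between libraries. In Th0 80.5% of the 57559 family 3p reads were miR-148a-3p (80.15 to 80.80%), and in Th17 60.0% of 38976 were (59.55 to 60.52%), with exact binomial intervals. For miR-148b-3p the share was 19.3% (18.96 to 19.61%) in Th0 against 39.9% (39.39 to 40.37%) in Th17. miR-152-3p took 0.240% and 0.0821%. Put as a ratio, miR-148a-3p had 4.17 reads for each read of miR-148b-3p in Th0 and 1.51 in Th17. This ratio was 2.77-fold lower in Th17, a difference of -1.47 between the log2 ratios (-1.51 to -1.43).

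**Figure D3:**
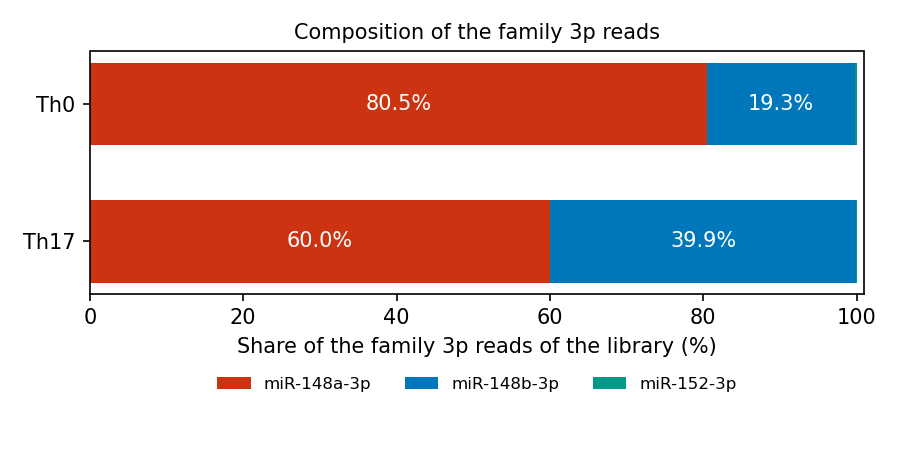
Share of each 3p member, in percent of all family 3p reads of a library, with 1 stacked bar per library. miR-148a-3p takes 80.5% in Th0 and 60.0% in Th17, and the rest is almost wholly miR-148b-3p, while miR-152-3p is too small to be seen.

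The hairpins differed widely in how their reads were divided between arms. The 5p strand made up 1.52% of the Mir148a reads in Th0 (1.41 to 1.63%) and 1.89% in Th17 (1.72 to 2.07%). For Mir148b it was 8.35% (7.86 to 8.86%) and 6.45% (6.08 to 6.83%), and the intervals of the libraries did not overlap for either hairpin. The shift was thus up by 0.373 percentage points for Mir148a and down by 1.90 points for Mir148b. For Mir152 the arms were nearly even, with a 5p share of 48.5% in Th0 (42.4 to 54.7%) and 59.5% in Th17 (47.9 to 70.4%), and these intervals overlapped on 268 and 79 reads.

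Among the 147 hairpins with a single listed precursor and at least 100 reads in each library, the median absolute shift was 0.515 points. Of these, 84 shifted more than Mir148a and 42 more than Mir148b. Next to Mir148a in that order stood miR-155, whose 5p share was 99.6% in Th0 and 99.2% in Th17, and miR-99b at 98.9% and 99.3%. Next to Mir148b stood miR-142a at 96.4% and 98.3% and miR-504 at 96.6% and 98.4%. In Th0, 31 of the 147 hairpins had a 5p share under 2%, as Mir148a did, and in 7 neither arm was under 40%, as in Mir152. Mir152 itself is not among the 147, as it had 79 reads in Th17. The first base of the 5p strand is A in miR-148a-5p, G in miR-148b-5p and U in miR-152-5p, and all the 3p strands begin with U.

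Both arms of Mir148a were more than 2-fold lower, with log2 ratios of -1.50 for the 3p and -1.18 for the 5p arm, a difference of 0.32 (0.15 to 0.50). For Mir148b the 5p arm at -0.44 was lower than the 3p arm by 0.40 (difference -0.40, interval -0.53 to -0.27). For Mir152 the arms stood at -2.63 and -1.99, and the interval of their difference, -0.14 to 1.43, spans 0. Among 75 hairpins with both arms at 10 CPM or more, the median absolute difference between arms was 0.32, with 36 hairpins above Mir148a and 33 above Mir148b, so both lie in the middle of the range. In 7 of the 75, Mir148a among them, both arms were at least 2-fold lower.

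**Figure D4:**
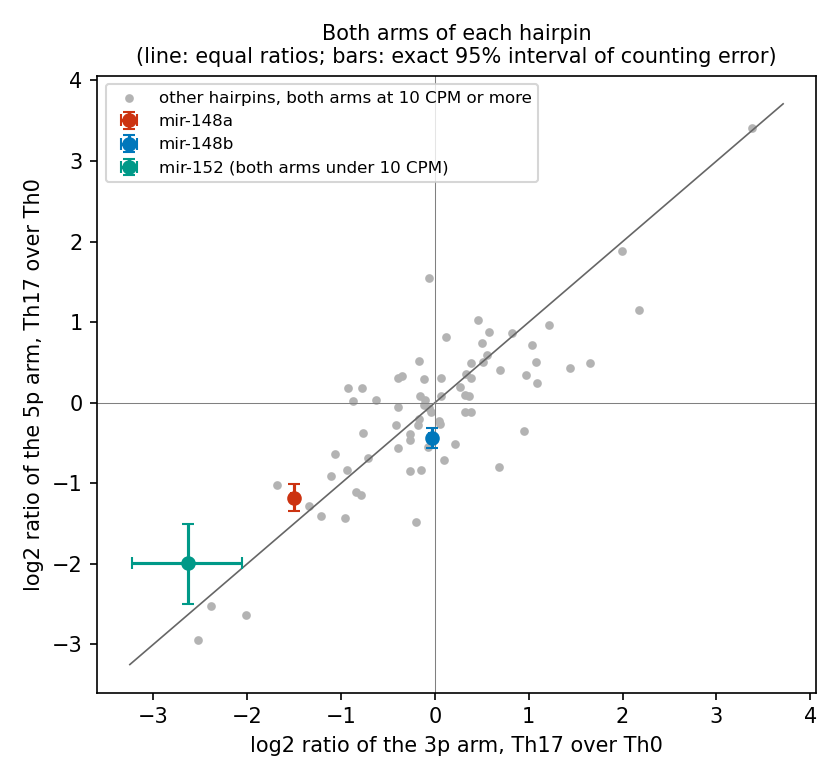
The log2 ratio of the 5p arm against that of the 3p arm, with 1 grey point per hairpin, a line for equal ratios, and bars for the counting interval of the family hairpins. Mir148a lies slightly above the line at -1.50 and -1.18, Mir148b lies slightly below it at -0.033 and -0.44, and Mir152 has the widest bars.

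Seed families were set beside each other to show how unequal the ratios of the 148a and 148b guides are. RefSeq held a sequence for 935 of the 1125 listed miRNAs and for 252 of the 298 at 10 CPM or more. Among 20 groups of at least 2 miRNAs that share a seed and have a mean of 100 CPM or more, the median span from the lowest to the highest log2 ratio was 0.97. These groups held from 2 to 9 miRNAs, and a span can only widen as members are added. The span between miR-148a-3p and miR-148b-3p, a group of 2, was 1.47, and 5 groups had a larger one. It was the one group of the 20 with a member at least 2-fold lower and another within 0.1 of no change on the log2 scale. That is the pattern the family was chosen for, so nothing is read from it. The group of miR-27a-3p (-0.87) and miR-27b-3p (0.12) came near these limits. With the minimum at 10 CPM there were 33 groups, of which 9 had a larger span than miR-148a-3p and miR-148b-3p.

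**Figure D5:**
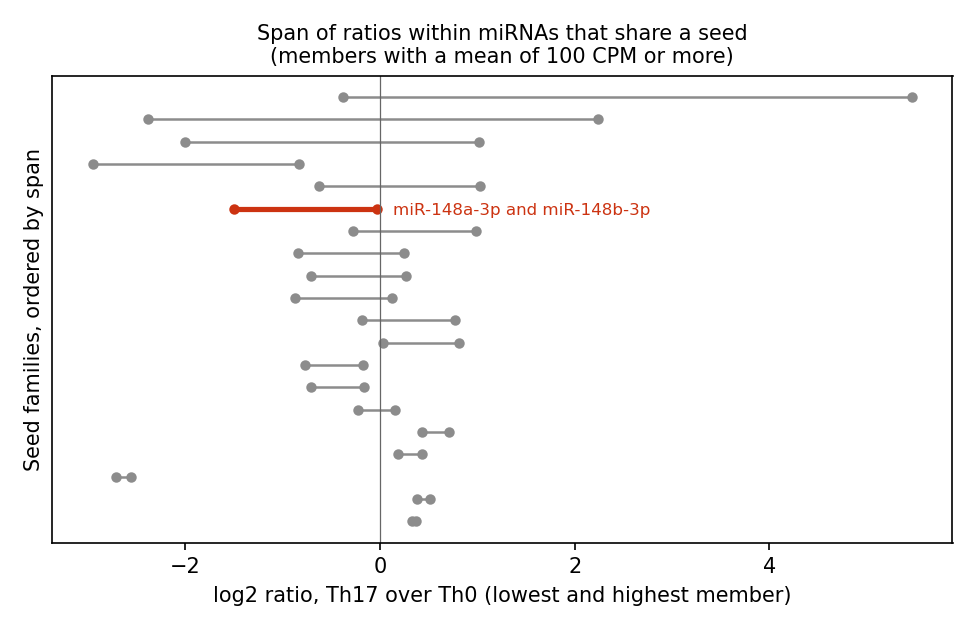
Lowest and highest log2 ratio of Th17 over Th0 in each of 20 groups of miRNAs that share a seed, 1 line per group, ordered by span. The line of miR-148a-3p and miR-148b-3p runs from -1.50 to -0.033 and is exceeded in length by 5 others.

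The miRNAs nearest to each 3p member were found by the distance of log2 CPM over the 2 libraries, which is a description with only 2 points per miRNA. Nearest to miR-148b-3p was miR-301a-3p, at 1437 CPM in Th0 and 1276 in Th17 (distance 0.12), then miR-421-3p at 1184 and 1259 (0.17) and miR-21a-3p at 1263 and 1160 (0.18). miR-148a-3p had no neighbour as close. The nearest was miR-27a-3p, at 5635 and 3088 CPM (0.66), followed by miR-23a-3p at 3488 and 2502 (0.76) and miR-142b at 3999 and 3014 (0.78). Nearest to miR-152-3p was miR-7683-5p with 185 reads in Th0 and 40 in Th17 (0.53), then its own other arm miR-152-5p (0.56) and miR-195a-5p with 227 and 36 reads (0.74).

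The other miRNAs known to repress the textbook targets of the family went different ways. Of 12 miRNAs known to repress Bim, all at the minimum, 5 were at least 2-fold lower and none 2-fold higher, beside 13.1% and 6.71% of all 298 miRNAs, and the median log2 ratio was -0.92. miR-148a-3p, chosen for its ratio, is one of the 5. The others are miR-19a-3p (-2.71), miR-19b-3p (-2.56), miR-20a-5p (-1.41) and miR-17-5p (-1.15), which can all come from the Mir17 cluster. Without miR-148a-3p, 4 of the other 11 were called lower and their median was -0.85. miR-181a-5p went the other way and lay just short of the limit, 1.98-fold higher (1.97 to 2.00), and its log2 ratio was 1.06, past it, under DESeq2 size factors. miR-92a-3p passed the limit on the lower side (-1.12) under a total without the 10 most abundant miRNAs. The 12 together came to 150386 CPM for Th0 and 106483 CPM for Th17, and miR-92a-3p, at 97631 and 49041 CPM, decided this sum. Without it the sum was 52754 CPM for Th0 and higher, 57442 CPM, for Th17.

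Of 9 miRNAs known to repress DNA methyltransferases, 7 met the minimum. Of these, 2 were at least 2-fold lower, miR-148a-3p, chosen for its ratio, and miR-126a-3p (-1.68), and 1 at least 2-fold higher. Over all 298 miRNAs at the minimum the shares were 13.1% lower and 6.71% higher, and nothing is read from the counts of so short a list. The median of the 7, -0.033, is the value of miR-148b-3p itself. Without the family, 5 were left, of which 1 was called lower, and their median was 0.084. The higher one was miR-29a-3p, which represses Dnmt3a and Dnmt3b, at 1.03, with 13253 CPM in Th0 and 27051 in Th17, and it was not called (0.90) under a total without the 10 most abundant miRNAs. miR-29b-3p stood at 0.81, whereas miR-29c-3p was lower, at -0.63. Summed over the list the reads were higher in Th17, at 31864 against 21705 CPM, and without miR-29a-3p they were lower, at 4813 against 8452 CPM. miR-148a-3p is in both lists, so their counts are not independent of each other.

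The labelled cell type was checked on marker miRNAs. All 6 lymphocyte markers were listed, with a sum of 98505 CPM for Th0 and 138342 CPM for Th17. Of these 5 were higher in Th17, by 1.13-fold for miR-142a-5p to 2.21-fold for miR-155-5p, and miR-142a-3p was 1.90-fold lower, at 2194 and 1153 CPM. Myeloid markers summed to 3.35 and 6.93 CPM. Of the pancreas markers 1 of 3 was listed, miR-375-3p, on 4 and 5 reads. The 3 erythroid markers summed to 163 and 169 CPM. Nearly all of this was miR-486a-5p (1360 and 1995 reads), while miR-451a had 6 and 24 reads and miR-144-3p had 0 and 2.

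Some markers of other cell types were at or above the level of family members and differed between the libraries. The 3 liver and serum markers were all listed, with sums of 1829 and 1485 CPM. Most of this was miR-192-5p, at 1700 and 1368 CPM, above miR-148b-3p in both libraries, and miR-194-5p stood at 129 and 117 CPM. The defining liver miRNA miR-122-5p had 0 reads in Th0 and 1 in Th17. The 6 stromal and endothelial markers were all listed, with sums of 50.4 CPM for Th0 and 42.3 CPM for Th17. The endothelial miR-126a-3p was lower in Th17 (399 and 179 reads), like miR-152-3p, whereas miR-199a-3p (10 and 142 reads), miR-199a-5p (4 and 93), miR-143-3p (6 and 73) and miR-214-3p (1 and 19) were higher. miR-145a-5p had 1 read in each. The 5 epithelial markers were all listed, with sums of 335 and 182 CPM. Of these miR-200b-3p (-1.92), miR-200a-3p (-1.59) and miR-141-3p (-0.42) had log2 ratios below 0, miR-200c-3p was above it (0.46), and miR-205-5p had 0 reads and 1 read. Their part in the ratios of the family was not tested.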

How the data were processed

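Per the labels' protocols, total RNA was extracted with a small RNA column kit, libraries were made with TruSeq small RNA chemistry and were sequenced on the Illumina HiSeq platform. The authors deposited 1 table per group, with whole-number read counts per mature miRNA. The deposited TPM column holds those counts divided by 1 total per library, 9072995 for Th0 and 13070648 for Th17. The listed reads are 92.1% and 91.6% of these totals. Per the submitters' processing notes reads were placed on mm10. The sources used here do not state trimming, aligner, annotation release or whether triplicates were pooled.

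Counts were divided by the sum of the listed counts (CPM), and a miRNA missing from 1 table was taken as 0 reads. Levels have exact Poisson intervals, shares exact binomial (Clopper-Pearson) intervals, and ratios exact intervals conditional on the sum of both counts, all at 95%, in SciPy 1.17.1. Differences between log2 ratios have the exact interval of the odds ratio. PCR reads with no molecular identifier are not separate molecules, so intervals cover counting error only. With 1 library per group there is no test and no p-value. A miRNA counts as called if its mean is 10 CPM or more, it differs by 2-fold or more, and its interval excludes 1. Intervals and calls were run on simulated Poisson counts with known totals. These hold no variation between libraries and no scaling error, so the run checks the calculation only. Alternatives were TMM factors (edgeR 4.0.16), DESeq2 1.42.0 size factors, the deposited TPM, totals without the 10 most abundant miRNAs, 0.5 or 5 CPM added, and other minimums and folds. The members and the lists of miRNAs were chosen with earlier results of these data known. Named are the members and miR-152-5p, the 3 miRNAs nearest to each 3p member, the up to 4 miRNAs of a list that lie farthest from a log2 ratio of 0, and neighbours in the order of arm shifts. Other names, such as miR-17-5p among the repressors of Bim and the markers given with their reads, were chosen after their values were seen. Sequences are those of RefSeq on GRCm38.p6. One further list of miRNAs is not reported here.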

Additional observations from a re-analysis of the deposited data

How the results depend on the processing

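Of 36 values under other settings, 27 stayed within the counting interval of the value given (for counts, within 1.5 times), 8 moved beyond it and 1 changed sign. The one that changed sign is the log2 ratio of miR-148b-3p, 0.045 under DESeq2 size factors against -0.033. Under the same factors miR-148a-3p stood at -1.43. Leaving the 10 most abundant miRNAs out of the total shifted every ratio by -0.13, which put miR-148a-3p at -1.63, miR-148b-3p at -0.16 and miR-148b-5p at -0.57. Adding 5 CPM moved miR-152-3p from -2.63 to -1.49, as its Th17 level is below that addition. At 10 CPM, 2 of 4 members and 39 of 298 miRNAs (13.1%) were at least 2-fold lower. With no minimum it was 3 of 5 members and 100 of 1125 miRNAs (8.89%). With a minimum of 100 CPM it was 1 member and 15 of all miRNAs. No share is given at that minimum, so nothing is read from the count of members there. The members at that minimum were miR-148a-3p, miR-148b-3p and miR-148b-5p, with means of 3748, 1313 and 105 CPM. Since the base changes with the minimum, these counts cannot be compared directly. Chosen after seeing the data, the same scalings were run for 3 listed miRNAs near 2-fold: without the 10 most abundant, miR-29a-3p stood at 0.90, miR-181a-5p at 0.86 and miR-92a-3p at -1.12, and under DESeq2 factors miR-29a-3p stood at 1.11, miR-181a-5p at 1.06 and miR-92a-3p at -0.92. The shares within the family do not depend on the scaling. No paired analysis was possible because each group has 1 library, and for the same reason no library could be left out.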

Other observations

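The miR-130 and miR-301 miRNAs carry a seed that overlaps that of miR-148a-3p with an offset of 1 base: bases 2 to 7 of miR-130a-3p, miR-130b-3p and miR-301a-3p are bases 3 to 8 of miR-148a-3p. They are shown for this overlap, with their own seed in capitals.
miR-130a-3p: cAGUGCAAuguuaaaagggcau
miR-130b-3p: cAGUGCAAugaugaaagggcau
miR-301a-3p: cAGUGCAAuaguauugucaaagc
Of the 6 miRNAs on this list 4 were listed, all at the minimum of 10 CPM. None of the 4 differed by 2-fold, beside 13.1% of all 298 miRNAs called lower and 6.71% called higher. With so few miRNAs nothing is read from that count. miR-130b-3p had 2793 CPM in Th0, against 1635 in Th17, 1.71-fold lower (1.68 to 1.74). miR-301a-3p stood at 1437 and 1276 CPM, 1.13-fold lower (1.10 to 1.15), and miR-301b-3p had a log2 ratio of -0.65. miR-130a-3p was the one above 0, at 52.9 and 74.6 CPM, 1.41-fold higher (1.26 to 1.58). Together they came to 4507 and 3128 CPM, a log2 ratio of -0.53, beside -1.08 for the summed 3p reads of miR-148a, miR-148b and miR-152.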
